A study of Bos taurus with 15 samples.

Results

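Skeletal muscle is a mixture. Most of its RNA comes from multinucleate fibres that make the sarcomere, the calcium machinery that triggers contraction and the enzymes that burn glucose and fat, and the remainder comes from vessels, connective tissue, fat cells, nerve and resident immune cells. An oligonucleotide array reads all of these at once, and its scanner software marks each spot as well above its local background or not. Those marks were used here to ask which genes were on in every animal, on in some animals, or not detected in the muscle of cattle given prednisolone, a synthetic glucocorticoid.

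The material was the biceps brachii, a muscle of the forelimb, of 8 animals out of the 15 of the series, chosen because they were the treated ones. Each received prednisolone by mouth at 30 mg per head every day for 35 days. The design text calls them cows, and no age is given. The muscle was collected at the slaughterhouse, RNA was extracted with TRIzol and cleaned with an RNeasy MinElute kit, and each animal gave 1 array in 1 dye, Cyanine 3. The animals are named P25 to P32 after their numbers, and the 7 controls were not compared. With 1 array per animal, differences between arrays hold both the animal and its sample handling. In a bulk sample fewer cells of a type and less RNA per cell cannot be told apart.

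A probe was called on in an animal when at least 1 of its 2 spots (3 of 6 for 10 probes) carried the scanner software's flag for a signal well above background. The arrays hold 21475 probes that are not controls. Of these, 12733 (59.3%) were on in all 8 animals, 4879 (22.7%) in 1 to 7 and 3863 (18%) in none. For the 15460 genes that could be named, taking for each gene its most often detected probe, 10210 (66%) were on in all 8 animals, 3196 (20.7%) in some and 2054 (13.3%) in none. These last shares are the background for every list that follows. The classes between were small: 1789 probes were on in a single animal and 493 in 7, with only 342 on in 5. Of 1224 negative control spots over the 8 arrays, 17 carried the flag, a share of 1.39% (exact 95% binomial interval 0.811 to 2.21%). This share is per spot, and 1 flagged spot on 1 array was enough to place a probe in the class of 1 to 7. Part of that class can therefore be stray flags. When every spot had to be flagged, 3765 probes (17.5%) were on in 1 to 7 animals and 5635 (26.2%) in none.

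**Figure D1:**
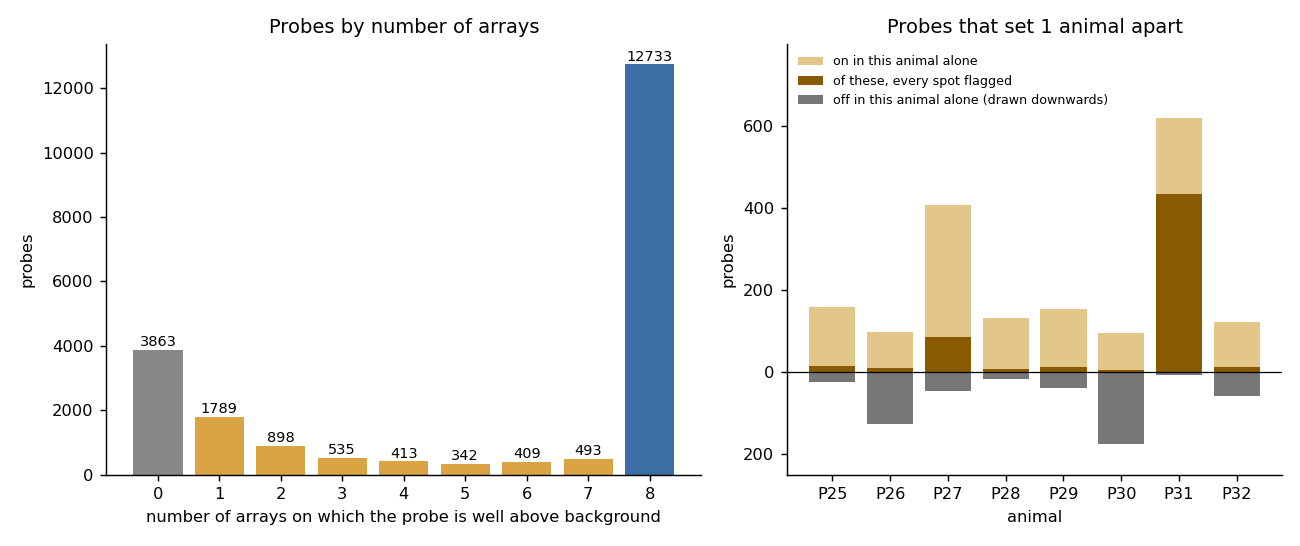
Left, number of probes (y axis) by the number of arrays on which they were well above background (x axis), with 12733 on all 8 and 3863 on none. Right, probes on in 1 animal alone (upward bars, the dark part with every spot flagged) and off in 1 animal alone (downward grey bars), per animal: P31 has 619 probes of its own, 434 of them with every spot flagged.

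The share of probes on ran from 65.04% in P26 to 72.6% in P31, with a median of 67.4% (n = 8). P31 and P27 stood out by what they alone had: 619 probes were on only in P31 and 407 only in P27, against 95 to 159 in each of the other 6 animals. The 2 arrays differed in kind, since 434 of the 619 probes of P31 but 87 of the 407 of P27 had every spot flagged. In each of the other 6 animals only 6 to 14 of such probes had every spot flagged. Conversely 174 probes were off only in P30 and 126 only in P26. The share of probes on was set against the array's median background (Pearson r = -0.51, Spearman rho = -0.05), its background SD (r = -0.36, rho = 0.00) and its 75th percentile of signal (r = 0.30, rho = 0.19). None of the 3 relations passed an exact two-sided permutation test over 8 arrays (p = 0.242, 0.386 and 0.486 for r, all 0.486 after Benjamini-Hochberg adjustment, and 0.929, 1 and 0.665 for rho, all 1 after adjustment). Without the 2 arrays farthest from the median of each measure, r was 0.65, 0.76 and 0.71, so the values rest on those arrays (P31 and P32, or P27 and P30). The 8 arrays lay on 5 slides. Over the 3 slides with a pair of arrays the share did not differ by slide in an exact two-sided permutation test (p = 0.467). The smallest p this test could give was 0.0667. P31 and P32 shared a slide with no other of these 8 arrays, and the slides of the controls were not read.

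The tissue label was checked on the contractile genes, and they were on throughout. All 11 measured genes of the thick filament and all 11 of the thin filament were on in every animal, as were 21 of 21 genes of the Z-disc and costamere, the structures that anchor the filaments. The slow myosin heavy chain MYH7 lay between 17.56 and 18.47 (median 17.85, log2 processed intensity scaled to a common 75th percentile), and the skeletal actin ACTA1 between 17.02 and 18.06 (median 17.40). Neither gene set any animal apart. MYH1, a fast myosin heavy chain read by 2 probes, lay between 16.96 and 18.02 on the one reported. Creatine kinase (CKM), myoglobin (MB), desmin (DES), titin (TTN) and the slow troponin TNNT1 were on in all 8, and MYH2, the other fast myosin of the marker set, was not measured here.

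TNNT3 and PVALB, both genes of fast fibres, were on in every animal but at unequal levels, while the fast troponin C gene TNNC2 lay between 17.92 and 18.74. TNNT3, the fast troponin T that ties tropomyosin to the calcium switch, ran from 11.57 in P32 and 11.93 in P27 to 16.68 in P30, with a median of 13.52 (SD 1.69, n = 8). P25 at 15.41 was the next highest and the other 4 animals lay between 13.33 and 14.20. Parvalbumin (PVALB), the calcium buffer of fast fibres, ran from 6.65 in P29 to 12.96 in P25 with a median of 10.10. The animals were ordered differently by these 2 genes, P30 being highest for TNNT3 and second lowest for PVALB at 8.52. The spots of 1 probe differed far less, with a duplicate-spot SD of 0.07 for TNNT3 and 0.09 for PVALB.

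Excitation-contraction coupling, the chain from membrane voltage to calcium release, had 20 of 22 genes on in all animals, among them the release channel RYR1, the voltage sensor CACNA1S and the calcium pumps ATP2A1 and ATP2A2. The exceptions were CASQ1, the calcium store protein of fast fibres, on in 5 animals, and the potassium channel KCNA7, on in 1. CASQ1 lay between 2.02 and 4.03, near the detection limit of the arrays (3.26 to 3.86 on this scale), and was on in no animal when both spots had to be flagged. The dystrophin complex, which links the fibre's skeleton to the matrix, had 16 of 17 genes on in all. At the neuromuscular junction 10 of 12 were on in all, and acetylcholinesterase (ACHE) and its collagen tail COLQ in none. A gene not detected by its probe may still be transcribed, and ACHE and COLQ each rest on what their probes could read.

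Energy metabolism was on almost without gaps: 21 of 21 glycolytic genes, 38 of 38 genes of respiratory complex I, 17 of 17 of ATP synthase, 20 of 22 of the citrate cycle and pyruvate dehydrogenase, and 21 of 22 of fatty acid oxidation. The 3 genes missing in some animals were OGDH, on in 6, PDHB, on in 1, and ETFDH, on in 7. ETFDH, which passes electrons from fatty acid oxidation to the respiratory chain, was at 1.96 and off in P25, against 5.86 to 7.47 in the other 7. Protein synthesis and breakdown were equally complete, with 83 of 84 genes of the cytosolic ribosome, 72 of 76 of the mitochondrial ribosome and 38 of 39 of the proteasome. Of 17 genes often used as references, 15 were on in all animals, GUSB, a lysosomal enzyme, was on in 2 and HPRT1, a purine salvage enzyme, in none. HPRT1 lay between 1.97 and 3.52 and was not flagged in any animal.

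**Figure D2:**
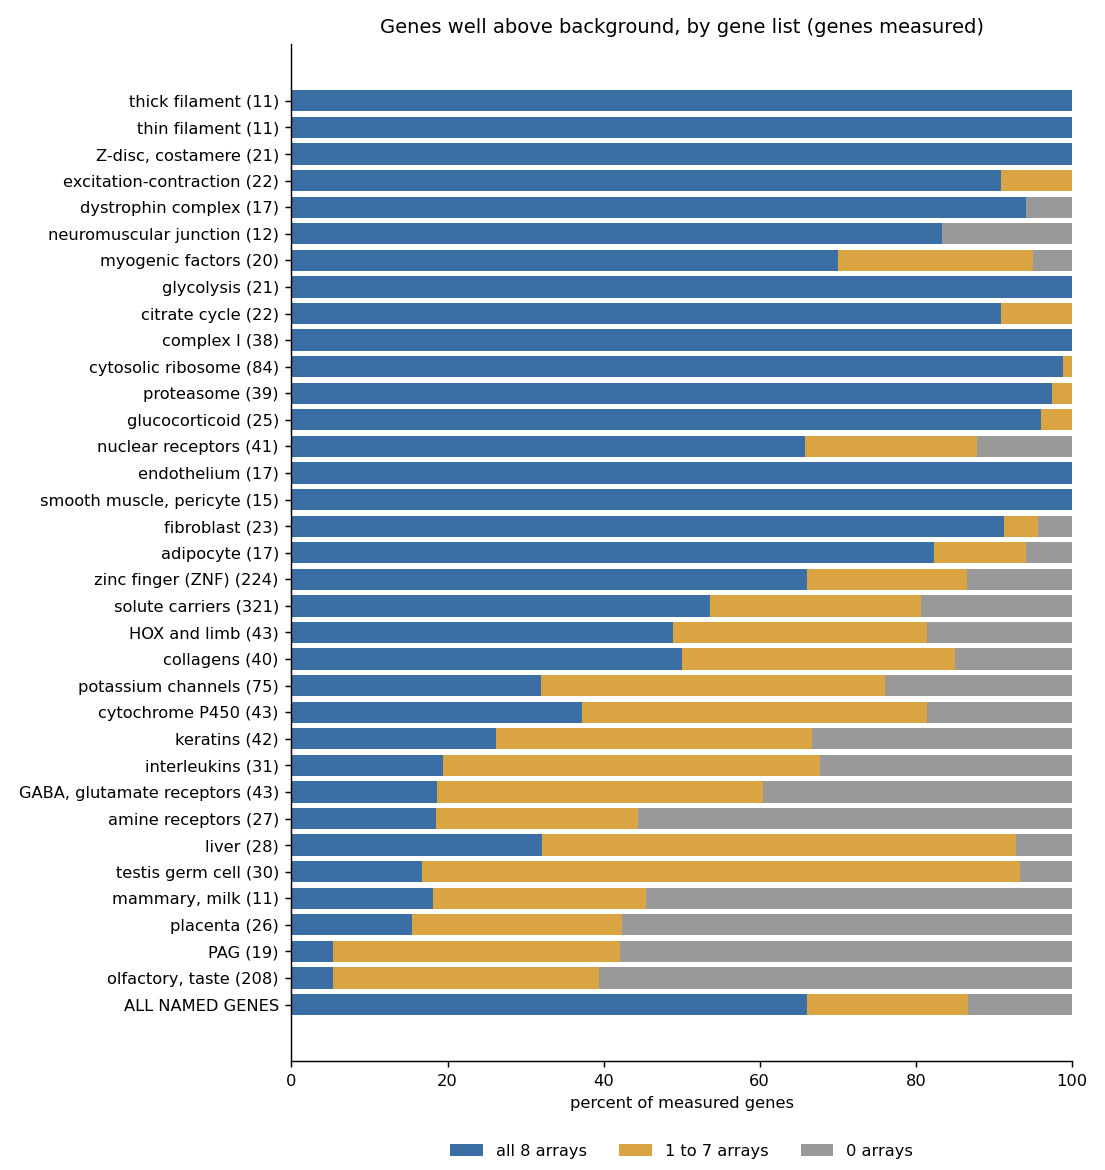
Percent of the measured genes of each list or family (y axis, number of genes in brackets) that were on in all 8 animals (blue), in 1 to 7 (orange) or in none (grey); the bottom bar gives all 15460 named genes, with 66%, 20.7% and 13.3%. Contractile and metabolic lists are nearly all blue, and the liver and testis lists are mostly orange.

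Genes of vessels and connective tissue were on almost without gaps. All 17 endothelial genes and all 15 genes of smooth muscle and pericytes, which wrap the vessels, were on in every animal, as were 21 of 23 fibroblast genes. Of 17 adipocyte genes 14 were on in all animals. ADIPOQ, the adipocyte hormone adiponectin, was on in 7 animals at 3.78 to 6.19 and off in P31 at 2.001, and leptin (LEP), another fat hormone, was on in none. THRSP, a lipogenic regulator, was likewise off only in P31 (3.23 against 5.01 to 6.74). Of the 12 Schwann cell and nerve genes 8 were on in all animals, and of the 18 macrophage genes 12, including CD68, CD14, CD163 and the C1q chains, each a share near the background of 66%. The list of T and NK cells lay below it, with 11 of 22 genes (50%) on in all. The list of B and plasma cells, with 8 of 14 (57.1%), lay closer to the background.

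The machinery that reads a glucocorticoid was on in every animal. NR3C1, the glucocorticoid receptor, lay between 10.42 in P28 and 11.36 in P30 (median 11.16, SD 0.31, n = 8), and NR3C2, the mineralocorticoid receptor that also binds glucocorticoids, between 8.79 and 9.63. NR3C2 has a second probe that was on in none, and the detected probe takes its name only from the array's description. Chaperones of the receptor (HSP90AA1, FKBP4, FKBP5, PTGES3, STIP1), both enzymes that interconvert active and inactive glucocorticoid (HSD11B1, HSD11B2) and targets such as TSC22D3, KLF9, FBXO32 and TRIM63 were on in all 8. Only the coactivator NCOA2, on in 2, broke the list of 25. HSD11B2, which inactivates cortisol, was at 4.16 to 4.45 in P30, P31 and P32 and at 5.58 to 6.78 in the other 5 animals. FKBP5, a co-chaperone that limits the receptor, ran from 11.91 in P26 to 13.64 in P32 with a median of 12.74.

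Among 41 nuclear receptors, 27 were on in all animals, 9 in some and 5 in none, a share of 65.9% in the first class, near the background of 66%. Those on in all included the oestrogen receptor ESR1, both thyroid hormone receptors, all 3 retinoid X receptors, PPARA, PPARG, VDR and the 3 NR4A factors. ESR1 was on in all 8 and ESR2, the second oestrogen receptor, only in P32 by 1 of its 2 spots, while the progesterone receptor PGR was on in none. HNF4A, a liver and gut factor, was on in P26, P28, P30 and P31. NR5A1, the factor of steroid-making cells, was on in P27, P28 and P31.

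Muscle identity factors divided by role. Factors of the mature fibre and of differentiation (MYOD1, MYOG, MYF6, MEF2A, MEF2C, MEF2D, SMYD1) were on in all animals, while those of stem and progenitor cells were near the limit. PAX7, the satellite cell factor, was on only in P27 at 4.04, and only by 1 of its 2 spots. PAX3 was on only in P31 at 4.89, and MYF5 was on in 6 animals at 3.92 to 4.51. Myostatin (MSTN), a secreted brake on muscle growth, was at 6.07 in P25 and 4.04 in P28 and not well above background in the other 6. P25 therefore exceeded by at least 2.21 on the log2 scale every animal in which MSTN was off. Every spot was flagged in 1 of the 2 animals with MSTN on and in 4 of the 6 with MYF5 on.

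HOX genes, which set position along the body and limb in the embryo, were on in part. Of 43 HOX and limb genes 21 were on in all animals (48.8%, beside 66% of all named genes), 14 in some and 8 in none. With names that come from the array's description alone left out, 8 of 24 were on in all. The always-on set included HOXA2, HOXA5, HOXA9, HOXA10, HOXA11, HOXB4, HOXB5, HOXB6, HOXC4, HOXC6, HOXC9, HOXC10, HOXD8, HOXD9, PITX1, MEIS1 and MEIS2. TBX5, a forelimb factor, was on only in P29, and TBX4, a hindlimb factor, in 5 animals at levels up to 4.81. P30 was set apart. HOXC8 was at 11.17 in P30 and between 3.10 and 5.13 in the other 7, and HOXA13, a gene of distal limb, was at 3.54 and not well above background in P30 against 5.70 to 6.74 in the other 7. A second HOXC8 probe was on in 1 animal. The neighbouring HOXC6 was at 10.41 in P30 against 4.52 to 5.61 elsewhere, HOXC10 at 8.93 against 4.66 to 6.13 and HOXB6 at 8.73 against 4.88 to 6.17. In all, 8 of the 21 always-on genes were highest in P30, including HOXC9 at 8.86 and HOXD9 at 13.09, while HOXC4 at 4.99 was not.

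Genes on in some animals were not scattered evenly over the 8. Of the 3196, 1980 were on in P31, 1460 in P27 and between 872 and 1170 in each of the others. P31 had the highest level among the animals where the gene was on for 1131 of them (35.4%) and P27 for 621 (19.4%). When only the 320 with a range over 16-fold were taken, 266 were highest in P31. The pair P30 and P31 alone shared 136 of the 898 probes on in exactly 2 animals, the most of any pair, followed by P27 and P31 with 109.

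Genes of sperm formation differed between animals. Of 30 germ cell genes 5 were on in all animals, 23 (76.7%) in some and 2 in none. The number on per animal was 8 to 12 in P25 to P29, 15 in P32, 25 in P30 and 28 in P31. PRM1, a protamine that packs sperm DNA, was not well above background in P27 and P28, was at 6.75 in P25, 8.93 in P26 and 9.76 in P29, and reached 12.10 in P32, 14.65 in P30 and 17.21 in P31. The transition protein TNP1, which precedes protamines on sperm DNA, had the same upper order, at 7.75 in P32, 10.39 in P30 and 13.21 in P31. This order was most frequent among wide-range genes. P31, P30 and P32 were the 3 highest, in that order, for 159 of the 320 wide-range genes (49.7%). The same held for 42 of the 148 always-on genes with a range over 16-fold (28.4%). It held for 213 of all 3196 genes on in some animals (6.66%) and 130 of the 10210 always-on genes (1.27%). The 320 were taken for their range, and 266 of them were highest in P31. Among the 8 treated arrays P31 and P32 shared a slide with no other, and P30 shared one with P29. The part of slide or sample handling in the order of P31, P30 and P32 was not tested.

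The 10 genes on in some animals with the largest ranges were PRM1, DNAAF1, HSPB9, COMP, HMGB4, DBIL5, TNP1, HDGFL1, DNAJB8 and H1-7, and all but COMP were highest in P31 and next in P30. The ciliary assembly factor DNAAF1 was at 14.63 in P31, 11.52 in P30 and 8.85 in P32, with 2.07 to 6.87 elsewhere. The small heat shock protein HSPB9 was at 13.92, 11.01 and 8.31 in the same animals, with 1.47 to 6.49 elsewhere. The pattern reached other families, as the glutathione transferase GSTT4 was at 11.27 in P31 and 8.13 in P30, with 5.48 in P32 and at most 4.33 elsewhere. INSL3, a hormone of testis Leydig and ovarian theca cells, was on in all 8 but at 14.93 in P31, 9.43 in P30, 7.62 in P32 and 5.10 to 6.02 in the other 5. PPP3R2, a calcineurin subunit, was on in P31 alone at 7.88.

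Cell division genes followed P30, P31 and P32 as well. Of 29 such genes 20 were on in all animals, and 25 were on in each of P30, P31 and P32 against 20 to 22 in the other 5. CCNA2, BUB1 and CENPF, which drive or guard mitosis, were each on in those 3 animals and no other.

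Liver genes marked a different pair. Of 28 genes 9 were on in all animals, 17 in some and 2 in none, with 23 on in P26, 22 in P28 and 12 to 14 in the other 6. Apolipoprotein H (APOH) was at 7.77 in P26 and 7.59 in P28 and not well above background in the other 6, at least 3.73 on the log2 scale below the lower of the pair. The fibrinogen chain FGG was at 9.34 and 9.64 in the pair and at most 3.76 elsewhere. Transferrin (TF), on in all 8, was at 9.93 in both and at 8.71 in P31, against 3.79 to 5.38 in the other 5. Albumin (ALB) was on in P26 (7.51), P28 (6.44) and P30 (3.62), and its 3 probes were on in 3, 2 and 1 animals. P26 and P28 lay on different slides.

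P26 also carried genes of steroid synthesis. CYP11B1, the last step of cortisol synthesis in the adrenal cortex, was on in P26 alone at 6.64, at least 2.78 on the log2 scale above every other animal. CYP21A2, another enzyme of that pathway, was at 8.54 in P26 and 4.49 to 5.24 in the other 7. The gonad and steroid list as a whole had 16 of 23 genes on in P26 and in P31 and 10 to 14 in the other animals.

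**Figure D3:**
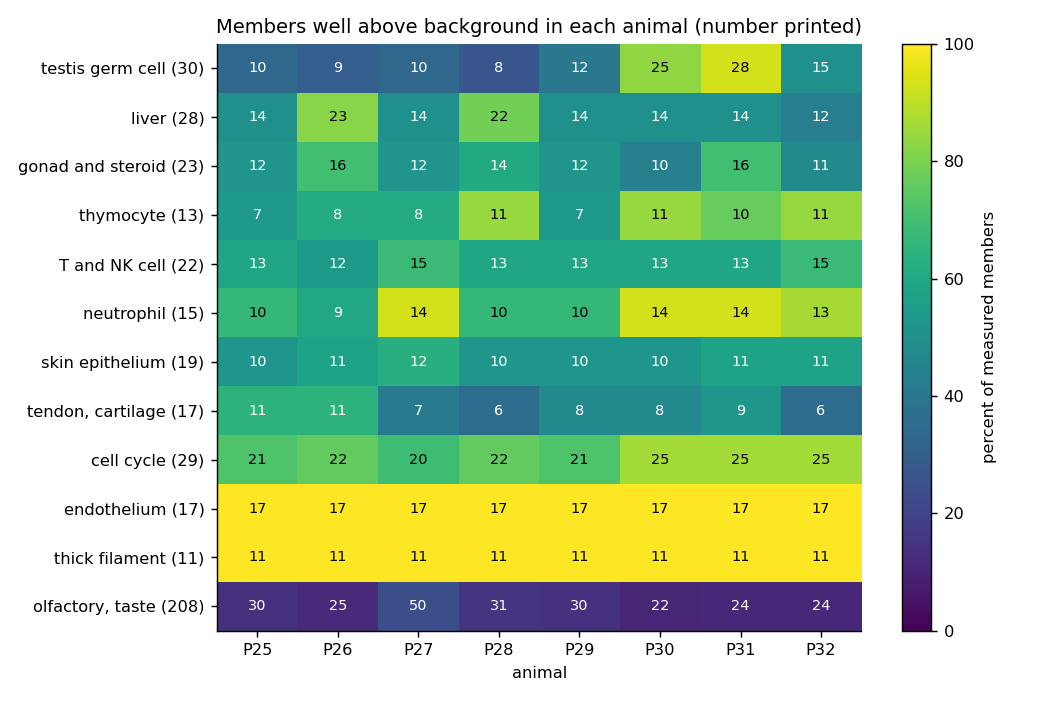
Number of genes on in each animal (columns) for 12 lists (rows, genes measured in brackets), coloured by percent of the measured genes. Testis genes peak in P30 (25) and P31 (28), liver genes in P26 (23) and P28 (22), and endothelial and thick filament genes are complete in all 8 animals.

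Immune genes split the animals in further ways. DNTT, the enzyme that diversifies antigen receptors in immature lymphocytes, was on in P30 (12), P32 (11.22), P28 (8.77) and P31 (5.94) and at 1.52 to 1.85 in the other 4. The 13 thymocyte genes had 10 or 11 on in those 4 animals and 7 or 8 in the rest. Keratin 5 (KRT5), a basal epithelial keratin, was at 10.23 in P32 and 7.57 in P30 against 4.96 to 5.71 in the other 6, and KRT6C was on in P32 alone at 7.71. Of the 19 genes of the skin epithelium list 10 to 12 were on per animal. KRT6A and KRT17 were also on in P32 alone and 3 of the 9 always-on members were highest there.

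Granulocyte genes followed yet another set. CATHL1, an antimicrobial cathelicidin of neutrophil granules, was at 10.68 in P32, 10.03 in P30 and 9.94 in P27, at 6.28 in P28, at 4.41 or below in P25 and P31, and off in P26 and P29. CATHL4 had the same 3 animals on top, at 8.66 to 8.99, with P28 next at 5.74. CATHL2 was on in these 3 alone. Myeloperoxidase (MPO), another granule protein, was on in them and in P31, where it was highest at 7.15. The neutrophil list had 14, 14 and 13 of 15 genes on in P27, P30 and P32, but also 14 in P31, and 9 or 10 in the others. Alpha-globin (HBA), of red cells, was highest in P27 (11.14), P30 (9.40) and P32 (9.14) and between 7.28 and 8.78 elsewhere. The part of blood in the granulocyte pattern was not tested.

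Connective tissue set P25 and P26 apart. COMP, a matrix protein of tendon and cartilage, was at 13.41 in P26 and 11.99 in P25, between 5.76 and 9.56 in P29, P30 and P31, and off in P27, P28 and P32. TNMD, a tendon membrane protein on in all 8, was at 13.54 and 12.34 in P26 and P25 and 4.34 to 9.53 in the other 6. Periostin (POSTN), a matrix protein of ligament and tendon, was at 8.52 and 7.03 in the pair and at most 4.03 elsewhere. Of 17 tendon and cartilage genes 11 were on in each of the pair and 6 to 9 in the others, and MKX and COL11A1 were on in the pair only. P25 and P26 share a slide, so slide and animal cannot be told apart for this pair.

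**Figure D4:**
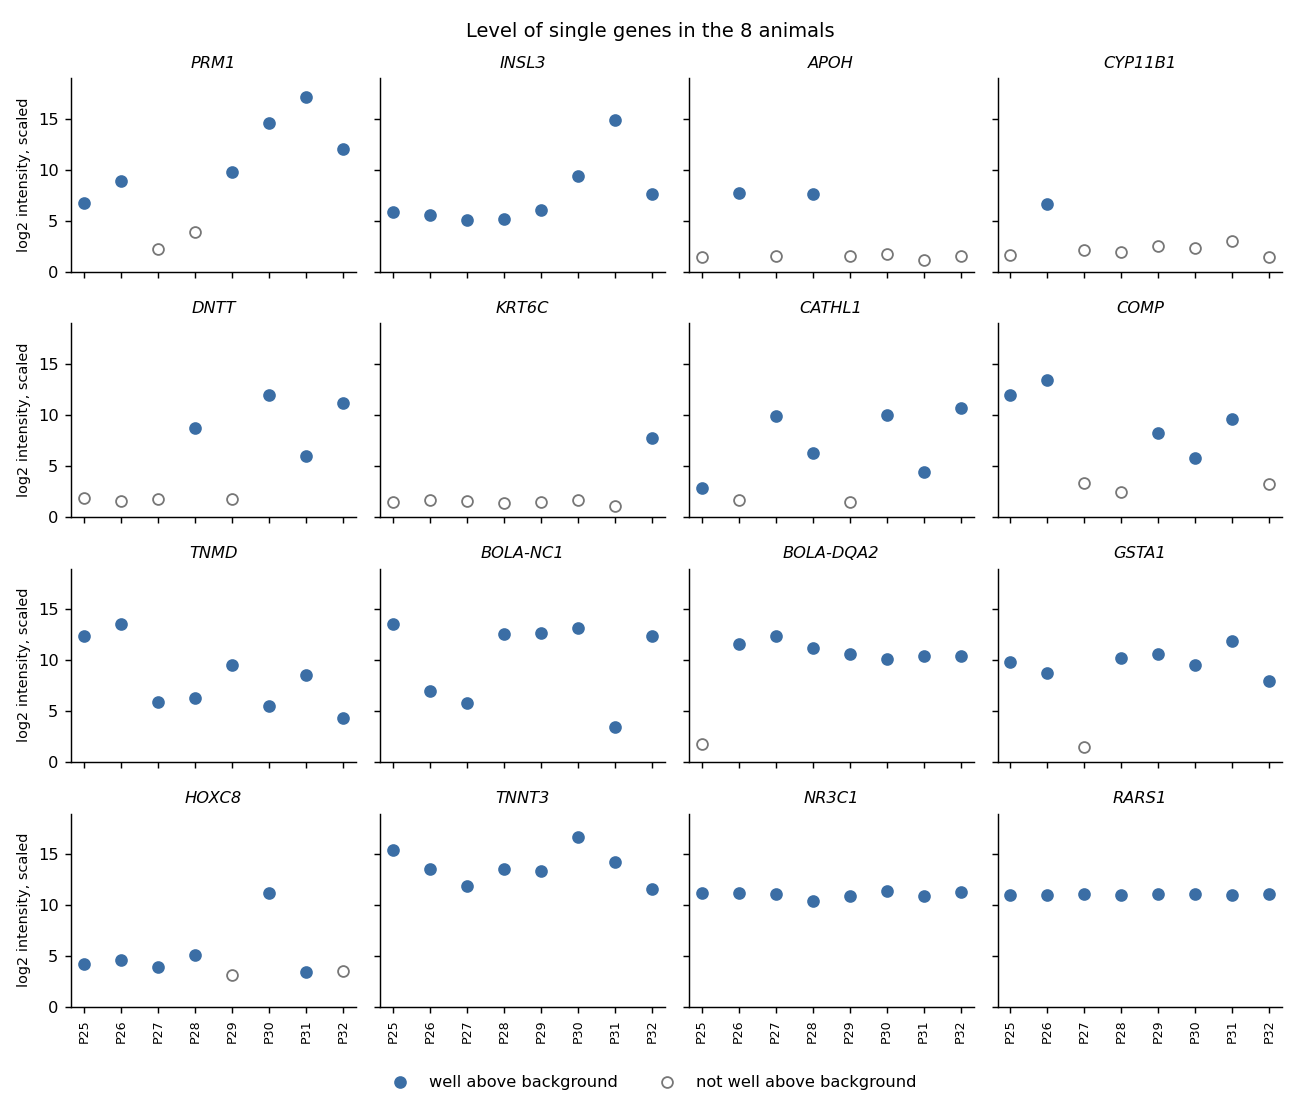
Scaled log2 processed intensity (y axis) of 16 genes in the 8 animals (x axis), filled where well above background and open where not. PRM1 and INSL3 peak in P31, APOH in P26 and P28, COMP and TNMD in P25 and P26, and NR3C1 and RARS1 are level.

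Some genes were missing from 1 animal in an otherwise bright group. The class II histocompatibility gene BOLA-DQA2, which presents antigen, was at 1.72 in P25 and 10.11 to 12.39 in the other 7, at least 6.61 on the log2 scale above the detection limit of P25. A second BOLA-DQA2 probe was on in only 1 animal. GSTA1, a glutathione transferase, was at 1.501 in P27 and 7.99 to 11.88 in the other 7, at least 4.36 above the limit of P27. BOLA-NC1, a non-classical class I gene, fell into separate groups without going off: 12.33 to 13.57 in P25, P28, P29, P30 and P32, 6.99 and 5.75 in P26 and P27, and 3.39 in P31. By contrast the class I gene BOLA (15.78 to 16.72) and the class II chain BOLA-DRA (11 to 12.40) were bright in all. Of the 15 bovine histocompatibility genes 8 were on in all animals, 5 in some and 2 in none. No sequence of these probes was used here, so whether a probe reads every animal's allele was not tested.

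The other genes absent from 1 animal had smaller gaps. PPTC7, a mitochondrial phosphatase, was off in P26, the prostaglandin synthase PTGS2 in P28, ELAPOR2 in P29, ANGPTL5 in P30, THRSP in P31 and the prion-like PRND in P32. Among genes on in 1 animal alone, the chemokine CXCL11, induced by interferon, was on in P27 at 5.95, and ISG15, another interferon-induced gene on in all 8, was also highest in P27 at 10.28 against 6.45 to 9.41. The hepatic transporter SLCO1B3 was on in P28 alone at 5.39. STS-1 in P25, ZNF383 in P29 and ABCC4 in P30 completed the set, each named by the array's description only, and STS-1 and ZNF383 with 1 of 2 spots flagged.

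Several families and lists of other tissues were off in large part. Of 208 olfactory and taste receptor genes, 126 (60.6%) were on in no animal, 71 in some and 11 in all. P27 alone had 50 of them on against 22 to 31 in the other 7, and when both spots had to be flagged 183 of the 208 were on in none. OR5A1 was the exception in level, between 7.24 and 8.06 in all 8 animals. Of 26 placental genes 15 were on in none and 4 in all, and of 19 pregnancy-associated glycoproteins 11 in none and 1 in all. Of 11 milk and mammary genes 6 were on in none, among them CSN3, CSN1S2 and LALBA. Of 16 kidney genes 8 were on in none and of 11 thyroid genes 6, beside 13.3% of all named genes. Other lists of this kind were not off in large part. Of 25 brain and neuron genes 5 (20%) were on in none and 10 in all. Among skin (3 of 19), liver (2 of 28) and bone genes (1 of 13) few were on in none.

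Receptors and signals of other tissues were mostly split between some animals and none. Of 27 receptors for adrenaline, dopamine and serotonin 15 were on in none and 5 in all, and of 43 GABA and glutamate receptors 17 in none and 8 in all. Of 31 interleukins 10 were on in none, 15 in some and 6 in all. Potassium channels (24 of 75 on in all), cytochrome P450 enzymes (16 of 43) and keratins (11 of 42) all lay below the background of 66%. Solute carriers (172 of 321, 53.6%) and zinc finger genes (148 of 224, 66.1%) lay closer to it.

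A few hormone and nerve genes were bright in every animal. AVP, the vasopressin precursor of the hypothalamus, lay between 15.77 and 16.59, and GRIN1, an NMDA receptor subunit, between 13.73 and 14.56. Neither set any animal apart. CSN2, the milk protein beta-casein, lay between 9.49 and 11.46 on one probe while its second probe, for the same gene, was on in none and lay at 1.203 to 1.868. AVP and GRIN1 have 1 probe each, GRIN1 named by description only, and what these probes bind was not tested. Probes named for the Y-linked genes ZFY (5.09 to 6.67) and UTY (4.57 to 5.78) were on in all 8 animals as well, beside their X-linked relatives ZFX and KDM6A. Of the other Y-linked genes measured, SRY was on in none, TSPY in P27, P29 and P31 and AMELY in P31, the last pair by 1 of 2 spots in each case.

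What a probe was designed from went with its class. Of 3628 probes on curated RefSeq records 72.1% were on in all animals, of 13169 on predicted RefSeq records 54.5%, of 2476 on expressed tags and other records 69.1% and of 2202 on unidentified transcripts 55.6%. The 17074 probes with 1 gene name had 63.5% on in all and 14.8% in none, the 4401 with no name or conflicting names 42.9% and 30.4%. Probes of 1 gene often disagreed: of 1469 genes with several probes, 759 had probes in different classes, and 257 had one probe on in all animals and another in none. The class of a gene with 1 probe therefore describes that probe.

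Within the always-on probes animals differed by more than spots did. The SD between the 8 animals had a median of 0.34 on the log2 scale, against 0.0845 between spots of 1 probe on 1 array, and was the larger in 96.3% of the 12733 probes. The lowest and highest animal differed by over 2-fold for 51.1% of these probes. A range over 16-fold was found for 170 probes, and for 76 when P31 was left out. Among the named always-on genes, each by its most often detected probe, 148 had a range over 16-fold. Of these genes 92 were highest in P31, 21 in P30 and 13 in P26. After BOLA-NC1, the widest were TNP2, INSL3, TNMD, FATE1, SPATA6, TEKT2 and ACTL7A, of which all but TNMD were highest in P31.

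**Figure D5:**
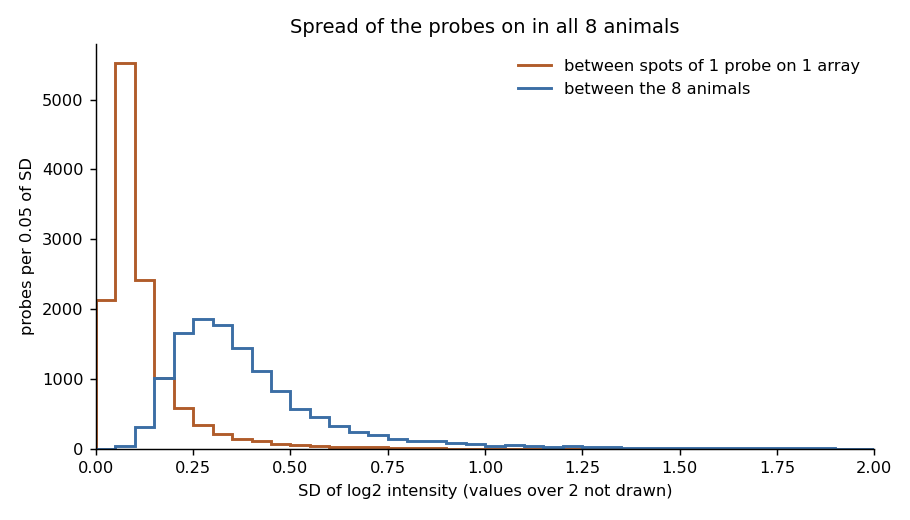
Number of always-on probes (y axis) by SD of log2 intensity (x axis), between spots of 1 probe (brown) and between the 8 animals (blue). The medians are 0.0845 and 0.34, and 42 probes with an SD between animals over 2 are not drawn.

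Gene groups differed in how level they were. The median SD of always-on genes was 0.25 for the proteasome and for translation initiation factors, 0.23 for the nuclear pore, 0.35 for the cytosolic ribosome and 0.31 for the thick filament, beside 0.33 for all always-on genes. It was 0.65 for fibroblast and matrix genes, 0.64 for cell division genes, 0.51 for immediate early genes and 0.58 for interferon-stimulated genes. CCL2, a monocyte chemokine, ran from 7.59 in P32 to 11.59 in P31. At the other end RARS1, the arginyl-tRNA synthetase, lay between 10.98 and 11.06 in all 8 animals, an SD of 0.029 beside a duplicate-spot SD of 0.044. SEC24A, a coat protein of secretory vesicles, lay between 9.80 and 9.96, and CTNNBL1, DPP3, MMS19, MAPRE1, ZMYM3 and RNF4 had SDs of 0.055 to 0.070.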

How the data were processed

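Cyanine 3 arrays of 8 animals were read with Feature Extraction 9.5.1.1, per the file headers; R 2.11.1 is named in the submitters' processing notes. The deposited processed signal is an intensity, background-corrected by the scanner software per the file headers, and the deposited flags mark a spot as well above background, positive and significant, found or outlying. The file headers set a multiplier of 13 for the flag for well above background and a largest p of 0.01 for the flag for significance. Here, log2 of the deposited intensity was scaled to a common 75th percentile per array, spots of 1 probe were averaged, and a probe was on when at least 0.5 of its spots were flagged. A gene took its most often detected probe. Where an animal was off, a difference is a bound against the array's lowest flagged spot, here called its detection limit. The animal's own level was used where it was higher. A probe on by part of its spots can average below that limit. Of 42990 spots per array, 27080 to 30463 were flagged; arrays give no read depth, and their number limits the precision.

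Names came from RefSeq identifiers and accessions, the array's gene names or, for 3857 probes, the array's description, and 276 probes with differing names were left out. Genes were named by rule: the first 3 measured members of each list, muscle genes on in none, 5 always-on members of each other-tissue list, the 10 genes on in some animals with the largest range, per animal the gene on or off there alone with the widest gap, and the 8 widest and 8 most level always-on genes. Other genes, among them TNNT3, PVALB, the BOLA genes other than those of the rule and the HOX genes high in P30, were chosen after their values were seen. The lists were chosen with earlier results of these data known. The scripts (Python 3.11.15, numpy 2.4.6, pandas 2.3.3, scipy 1.17.1, and R 4.3.3 with limma 3.58.1 for normexp alone) were tested on simulated data. Quantile normalization was done in Python. Alternatives were stricter and looser flags, other scalings, other name rules and leaving out each animal. A few genes of the lists are counted but not reported here by name.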

Additional observations from a re-analysis of the deposited data

Results flagged for a closer look

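Among 76 genes given with a level, 8 measures of the arrays and 9 list counts, 17 genes had 1 animal set apart. Its gap to the nearest of the other 7 exceeded Dixon's limit of 0.526 of the whole range. Undetected values below the array's detection limit were set at that limit. For 8 normally distributed values chance gives such a gap in about 1 in 20 groups. Values set at a limit are not so distributed, and many of these genes were named for a gap or a wide range. The 17 therefore cannot be set against that rate. Of the 17, 7 had been named for a gap in 1 animal and HOXC6, HOXC10, HOXB6 and ETFDH were added after their values were seen. None of these 8 array measures and 9 list counts was set apart. The counts of olfactory and taste receptors, with 50 on in P27 against 22 to 31 in the other 7, were not among them. Nor were the counts of probes on in 1 animal alone with every spot flagged, 434 in P31 and 87 in P27.

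High in P30 were HOXC8 at 11.166 (next 5.127), HOXC6 at 10.407 (next 5.605), HOXC10 at 8.926 (next 6.135) and HOXB6 at 8.727 (next 6.172), while HOXA13 was low in P30, below a limit of 3.863 (next 5.696). High in P31 were INSL3 at 14.934 (next 9.426), PPP3R2 at 7.876 and PAX3 at 4.892. High in P26 were CYP21A2 at 8.545 (next 5.24) and CYP11B1 at 6.645. KRT6C stood at 7.708 in P32, MSTN at 6.069 in P25, CXCL11 at 5.949 in P27 and SLCO1B3 at 5.387 in P28. Low in P25 were BOLA-DQA2, below 3.501 with the next at 10.114, and ETFDH, below 3.501 with the next at 5.855. GSTA1 was low in P27, below 3.632 with the next at 7.993.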

How the results depend on the processing

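The class counts stayed within 1.5 times under a stricter flag (every spot flagged), a signal over the 99th percentile of negative controls, other name rules and, added after seeing the data, spots also found by the software. The looser positive-and-significant flag left 804 probes (3.74%) and 377 genes (2.44%) on in none and flagged 3.68% of negative control spots. With each animal left out in turn, probes on in all remaining animals numbered 12741 to 12907, in some 4252 to 4729 and in none 3958 to 4482, and genes 10215 to 10320, 2777 to 3112 and 2109 to 2468. The median SD between animals was 0.3131 to 0.3445, and 0.533 with normexp, whose lowest values differed widely between arrays. Probes with a range over 16-fold fell from 170 to 76 without P31, with up to 168 without another animal, and to 52 with normexp. The correlations of the share of probes on with the array measures changed sign: without P31, r was 0.3352 for the median background, 0.4506 for the background SD and -0.3243 for the 75th percentile, the last being -0.0111 with the looser flag; across single omissions they ran from -0.7019 to 0.3352, -0.5655 to 0.4506 and -0.3243 to 0.6991, and the cause was not tested. Of 275 named genes, 31 changed class when every spot had to be flagged and 55 under the looser flag, and the range of 143 moved under normexp. Genes set apart by 1 animal lose that without it. No paired analysis was possible because 1 group was described and nothing was compared with it. A probe not well above background has a bound only, so weakly expressed genes cannot be told from silent ones.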
